A study of Mus musculus with 11 samples.

Results

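The mRNA levels of 10 genes around the Hippo pathway were read in mouse brain tumors and in normal brain, out of 24320 gene rows in the expression table. The genes are the coactivators Yap1 and Wwtr1 (the gene of TAZ), the DNA-binding partners Tead1, Tead2, Tead3 and Tead4, the kinases Lats1 and Lats2, the YAP-binding scaffold Amotl2, and Ankrd1, a widely used target of YAP and TAZ. All 10 were found by symbol. They were selected on FPKM differences between the groups in earlier results of these data, so their own levels are given as a description without p-values.

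There were 4 libraries of NRAS tumors, 4 of PDGFB tumors and 3 of normal brain, 11 in all. Plasmids were injected into a lateral brain ventricle of newborn mice, where the Sleeping Beauty transposase carries plasmid genes into the DNA of host cells. All tumor plasmid mixes encoded the transposase, firefly luciferase and SV40 large T antigen (SV40LgT), which binds p53 and Rb. NRAS tumors received NRAS G12V, a RAS GTPase held in its active state, and PDGFB tumors received PDGFB, a growth factor. Normal brain is labelled as wild type and carried no such gene. Tumors were cut out by their GFP signal midway through growth, so each library holds tumor cells together with the host cells among them. The sources used here do not give the promoters of the plasmid genes. The strain is FVB in the study's design and for normal brain 3, and B6 in the labels of the other 10 libraries. By their titles, normal brain 1 is matched with NRAS tumor 2 and normal brain 3 with PDGFB tumor 1, but whether a pair shares an animal is not stated. Nor is it stated that the libraries of a group are from separate animals, so errors and p-values cover the spread among these libraries only.

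In the Hippo pathway the MST kinases, with the adaptor SAV1, activate the LATS kinases, which act with MOB1. LATS phosphorylates YAP and TAZ, which then stay in the cytoplasm or are degraded. Unphosphorylated YAP and TAZ enter the nucleus and, bound to a TEAD protein, turn on genes of growth, adhesion and cell shape. TEAD proteins find DNA through a short element that reads GGAATG, or CATTCC on the other strand. LATS2, AMOTL2 and ANKRD1 are among the known targets of YAP and TAZ while LATS2 and AMOTL2 also restrain them. In the brain, YAP and TAZ are found mainly in neural stem cells, astrocytes and vessels rather than in neurons. Control of this pathway acts largely on proteins, which mRNA levels do not show.

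Values are FPKM, which adjusts fragment numbers for transcript length and for the size of the library, so that genes can be compared with each other. The libraries had relative depths of 0.776 to 1.0 and 12705 to 13923 genes with at least 1 FPKM. The labels were checked on the genes added by plasmid. Nras read 154, 139, 119.7 and 82.0 FPKM in NRAS tumors 1 to 4, 31.7 to 42.9 FPKM in PDGFB tumors and 13 to 17.5 FPKM in normal brain. Pdgfb read 745 to 1564 FPKM in PDGFB tumors, 5.15 to 7.80 FPKM in NRAS tumors and 6.12 to 7.19 FPKM in normal brain. PDGFB tumor 2 stood apart from the other PDGFB tumors at several of the 10 genes, and values without it are given beside those results. All PDGFB tumors carry title numbers from 2038 to 2046 and all normal brains numbers from 1834 to 1838, while NRAS tumors 1 and 2 fall in the lower series and NRAS tumors 3 and 4 in the upper one. The sources used here do not say what these numbers stand for. A difference between the number series and one between PDGFB tumors and normal brain cannot be told apart, other than through the NRAS tumors that fall in both.

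The stretch upstream of 5 genes is shown because these windows hold the TEAD element and belong to genes that the results below turn on. Each is the 250 bases before the most upstream RefSeq start of the gene on GRCm38.p6, written 5′ to 3′ on the gene's strand, with the element in capitals. Yap1 lies on the minus strand at chr9:8004597-8004846 and Wwtr1 on the minus strand at chr3:57575911-57576160. Amotl2 lies on the plus strand at chr9:102717554-102717803, Ankrd1 on the minus strand at chr19:36119845-36120094 and Ccn1, a target gene outside the 10, on the minus strand at chr3:145649986-145650235.
Yap1: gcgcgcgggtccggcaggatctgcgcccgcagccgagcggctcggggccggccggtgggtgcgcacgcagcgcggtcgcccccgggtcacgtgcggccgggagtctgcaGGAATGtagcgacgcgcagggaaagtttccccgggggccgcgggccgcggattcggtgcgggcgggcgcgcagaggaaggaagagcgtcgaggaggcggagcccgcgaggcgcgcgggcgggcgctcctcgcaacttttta
Wwtr1: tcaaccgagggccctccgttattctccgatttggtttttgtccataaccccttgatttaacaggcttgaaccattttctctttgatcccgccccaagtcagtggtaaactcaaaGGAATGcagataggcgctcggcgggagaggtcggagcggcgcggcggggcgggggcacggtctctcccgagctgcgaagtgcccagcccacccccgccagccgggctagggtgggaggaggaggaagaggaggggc
Amotl2: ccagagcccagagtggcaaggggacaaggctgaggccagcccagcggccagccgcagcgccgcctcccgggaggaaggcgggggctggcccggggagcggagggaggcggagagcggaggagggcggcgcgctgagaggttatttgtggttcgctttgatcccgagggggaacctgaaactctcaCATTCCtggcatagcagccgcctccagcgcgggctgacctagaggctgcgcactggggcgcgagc
Ankrd1: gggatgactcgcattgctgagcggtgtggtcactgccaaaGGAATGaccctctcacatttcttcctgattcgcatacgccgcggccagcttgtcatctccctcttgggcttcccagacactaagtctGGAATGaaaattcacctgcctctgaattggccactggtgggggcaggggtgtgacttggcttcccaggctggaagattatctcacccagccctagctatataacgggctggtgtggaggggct
Ccn1: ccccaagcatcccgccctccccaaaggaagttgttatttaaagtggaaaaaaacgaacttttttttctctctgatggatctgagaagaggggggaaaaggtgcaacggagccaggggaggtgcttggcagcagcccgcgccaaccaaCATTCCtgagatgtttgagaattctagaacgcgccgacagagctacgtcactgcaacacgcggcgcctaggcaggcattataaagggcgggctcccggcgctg
Ankrd1 held the element at 2 places, 210 and 123 bases before its start. Yap1 held it at 141 bases before its start and Wwtr1 at 136, both as GGAATG, while Amotl2 at 65 and Ccn1 at 103 held CATTCC. In the gene annotation used for positions, Yap1 and Amotl2 begin further upstream than this RefSeq start, so part of the Yap1 window and all of the Amotl2 window lie inside the annotated gene.

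Of the 10 genes, 8 had a window in the RefSeq table, and 5 of these 8 (62.5%) held the element on either strand: those named and Tead3, at 182 bases before its start. Tead2, Lats1 and Lats2 did not hold these letters in the window. Over all genes with a window, 3416 of 27025 (12.6%) held it, and 277 of them (1.02%) held it at least 2 times, as Ankrd1 did. In the gene lists used below, 9 of 24 upstream regulators and TEAD cofactors with a window (37.5%) held it. So did 4 of 12 published YAP/TAZ targets with a window (33.3%). A match is a description of the letters and not a bound site. Binding of YAP, TAZ or TEAD was not measured.

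Both coactivators were most abundant in NRAS tumors, and they parted ways in PDGFB tumors, where Wwtr1 lay above normal brain and Yap1 below it. Yap1 (chromosome 9, 7931999 to 8004638) encodes YAP. It read 18.4, 16.0, 17.3 and 38.4 FPKM in NRAS tumors 1 to 4, 3.77, 5.90, 3.65 and 3.48 FPKM in PDGFB tumors 1 to 4, and 6.74, 9.22 and 7.89 FPKM in normal brain 1 to 3. The 3 groups did not overlap: every NRAS tumor was above every normal brain and every PDGFB tumor was below. NRAS tumor 4 stood above the other 3 NRAS tumors by more than their own range. On the log2(FPKM + 1) scale, Yap1 differed by 1.31 ± 0.28 (SE) between NRAS tumors and normal brain, by -0.80 ± 0.28 between PDGFB tumors and normal brain, and by 2.11 ± 0.26 between NRAS and PDGFB tumors. Without NRAS tumor 4 the first difference was 1.03. When the number series was a term in the fit, the difference between PDGFB tumors and normal brain was -1.36. That term is set by the NRAS tumors alone, the only group in both series, and so takes in the high NRAS tumor 4. Without PDGFB tumor 2 the difference between PDGFB tumors and normal brain was -0.94.

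Wwtr1 (chromosome 3, 57455644 to 57575910) encodes TAZ, the close relative of YAP. It read 51.7, 45.1, 69.2 and 38.1 FPKM in NRAS tumors 1 to 4, 9.88, 18.5, 10 and 7.39 FPKM in PDGFB tumors 1 to 4, and 5.07, 5.48 and 4.80 FPKM in normal brain 1 to 3. The groups followed that order without overlap, and PDGFB tumor 2 was the highest of its group. Wwtr1 differed by 3.06 ± 0.27 (log2, SE) between NRAS tumors and normal brain, by 0.95 ± 0.27 between PDGFB tumors and normal brain and by 2.10 ± 0.25 between NRAS and PDGFB tumors. Without PDGFB tumor 2 the difference between PDGFB tumors and normal brain was 0.71. In bulk tissue, more cells of a type and more RNA per cell cannot be told apart.

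**Figure D1:**
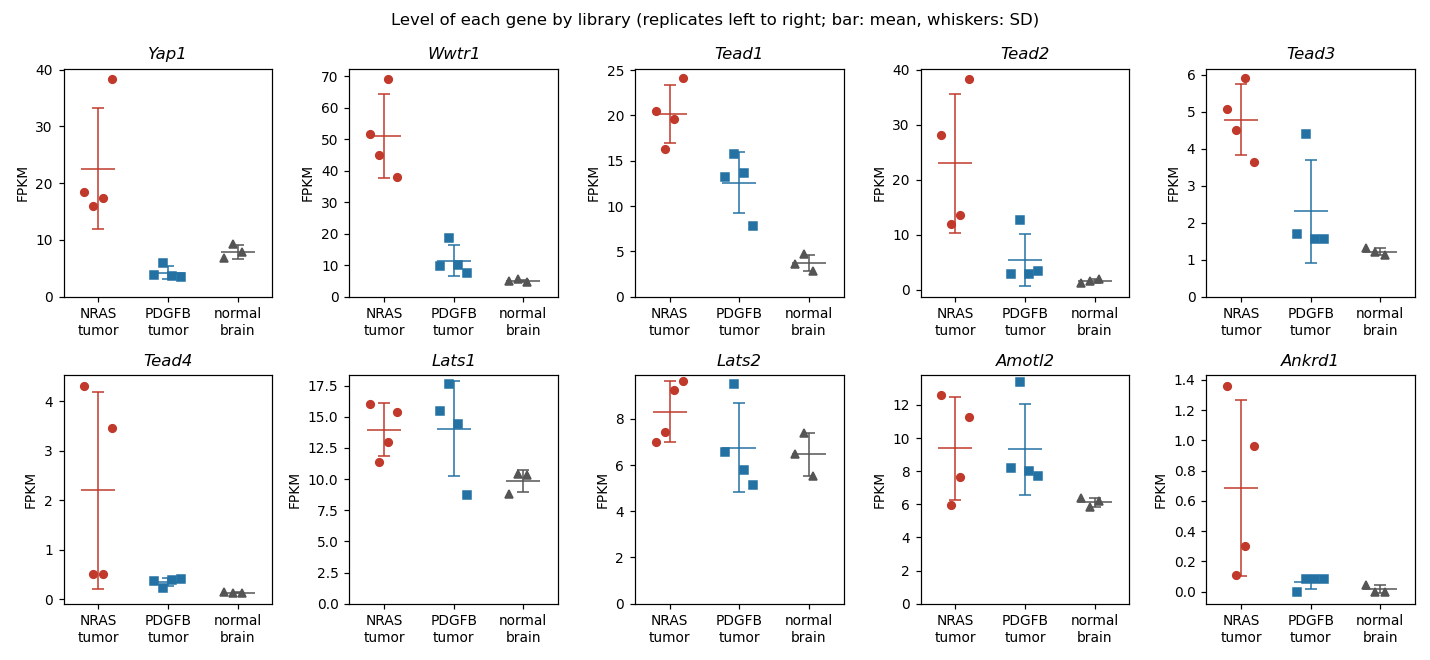
FPKM of the 10 genes in each library, 1 panel per gene with its own axis, NRAS tumors at the left, PDGFB tumors in the middle and normal brain at the right; points are libraries and bars are group means. Wwtr1 ranges from 38.1 to 69.2 FPKM in NRAS tumors and from 4.80 to 5.48 FPKM in normal brain, while the groups overlap at Lats2.

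The balance of the coactivators also differed. The ratio of Wwtr1 to Yap1 FPKM was 2.80, 2.83, 4.0 and 0.992 for NRAS tumors 1 to 4, 2.62, 3.14, 2.75 and 2.12 for PDGFB tumors 1 to 4, and 0.752, 0.594 and 0.608 in normal brain 1 to 3. Normal brain thus held more Yap1 than Wwtr1 per transcript length in every sample, and all tumors but NRAS tumor 4 held more Wwtr1. The ratio averaged 2.66 ± 1.24 in NRAS tumors, 2.66 ± 0.421 in PDGFB tumors and 0.651 ± 0.0875 in normal brain (SD, n = 4, 4 and 3). NRAS tumor 4 had the lowest Wwtr1 (38.1 FPKM) and the highest Yap1 (38.4 FPKM) of its group. The sum of both coactivators was 70.2, 61.1, 86.5 and 76.6 FPKM in NRAS tumors 1 to 4, 13.7, 24.4, 13.7 and 10.9 FPKM in PDGFB tumors 1 to 4, and 11.8, 14.7 and 12.7 FPKM in normal brain 1 to 3. The sum in PDGFB tumors overlapped normal brain although both genes taken singly did not.

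**Figure D2:**
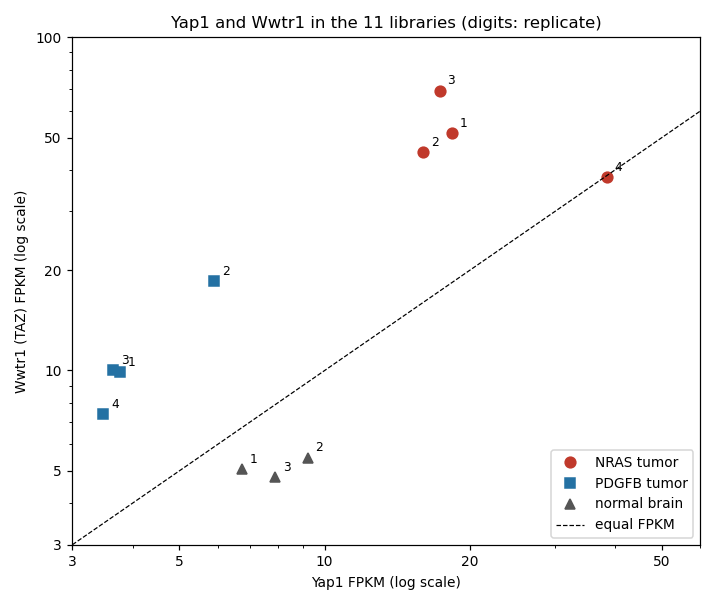
Wwtr1 against Yap1 in FPKM on log axes, 1 point per library, with a line where both are equal. The 3 normal brains lie below the line, NRAS tumor 4 lies on it with a ratio of 0.992, and the other 7 tumors lie above it.

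All 4 TEAD genes were higher in both tumor kinds than in normal brain in every sample. Tead1 (chromosome 7, 112679356 to 112906784), the TEAD gene with the highest level in normal brain, read 20.5, 16.3, 19.6 and 24.1 FPKM in NRAS tumors 1 to 4, 13.2, 15.7, 13.7 and 7.78 FPKM in PDGFB tumors 1 to 4, and 3.58, 4.71 and 2.87 FPKM in normal brain 1 to 3. No pair of groups overlapped, although PDGFB tumor 2 came within 1 FPKM of NRAS tumor 2. Tead1 differed by 2.17 ± 0.23 (log2, SE) between NRAS tumors and normal brain and by 1.51 ± 0.23 between PDGFB tumors and normal brain. NRAS and PDGFB tumors differed by 0.66 ± 0.21.

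Tead2 (chromosome 7, 45215792 to 45233468), which in the mouse is known from the early embryo and from neural progenitors, varied more within the tumor groups. It read 28.1, 11.9, 13.5 and 38.3 FPKM in NRAS tumors 1 to 4, 2.80, 12.6, 2.93 and 3.33 FPKM in PDGFB tumors 1 to 4, and 1.26, 1.62 and 2.0 FPKM in normal brain 1 to 3. PDGFB tumor 2 reached the level of NRAS tumors 2 and 3, and the other 3 PDGFB tumors stayed between 2.80 and 3.33 FPKM. Tead2 differed by 3.04 ± 0.49 (log2, SE) between NRAS tumors and normal brain, by 1.06 ± 0.49 between PDGFB tumors and normal brain and by 1.98 ± 0.45 between NRAS and PDGFB tumors. Without PDGFB tumor 2 the last 2 differences were 0.62 and 2.42.

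Tead3 (chromosome 17, 28331671 to 28350805), another TEAD gene and known from the placenta, showed the same sample apart. It read 5.08, 4.50, 5.92 and 3.65 FPKM in NRAS tumors 1 to 4, 1.71, 4.40, 1.57 and 1.55 FPKM in PDGFB tumors 1 to 4, and 1.32, 1.20 and 1.13 FPKM in normal brain 1 to 3. NRAS and PDGFB tumors overlapped through PDGFB tumor 2 alone. The differences were 1.37 ± 0.26 for NRAS tumors against normal brain, 0.50 ± 0.26 for PDGFB tumors against normal brain and 0.87 ± 0.24 between NRAS and PDGFB tumors (log2, SE). Without PDGFB tumor 2 the last 2 were 0.23 and 1.14.

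Tead4 (chromosome 6, 128227143 to 128300813), needed for the trophectoderm of the mouse embryo, was the least abundant and split the NRAS tumors. It read 4.31, 0.504, 0.514 and 3.46 FPKM in NRAS tumors 1 to 4, 0.369, 0.237, 0.387 and 0.415 FPKM in PDGFB tumors 1 to 4, and 0.148, 0.126 and 0.126 FPKM in normal brain 1 to 3. NRAS tumors 1 and 4, which also held the most Tead2, stood well above NRAS tumors 2 and 3. Only these 2 libraries reached 1 FPKM, so Tead4 did not enter the fit, which needs 3, and has no fitted difference.

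The summed TEAD level was 58.0, 33.2, 39.5 and 69.5 FPKM in NRAS tumors 1 to 4, 18.1, 33.0, 18.5 and 13.1 FPKM in PDGFB tumors 1 to 4, and 6.31, 7.66 and 6.13 FPKM in normal brain 1 to 3. It averaged 50 ± 16.7 FPKM in NRAS tumors, 20.7 ± 8.58 FPKM in PDGFB tumors and 6.70 ± 0.836 FPKM in normal brain (SD, n = 4, 4 and 3). PDGFB tumor 2 came to the level of NRAS tumor 2, just under the whole NRAS range. The makeup of this sum varied with the tumor kind, with PDGFB tumor 2 among the NRAS values. Tead1 made up 35.4%, 49.1%, 49.6% and 34.7% of it for NRAS tumors 1 to 4, 73.1%, 47.7%, 73.6% and 59.5% for PDGFB tumors 1 to 4, and 56.7%, 61.5% and 46.8% in normal brain 1 to 3. Tead2 made up 48.4%, 35.8%, 34.2% and 55.1% for NRAS tumors 1 to 4, 15.4%, 38.2%, 15.8% and 25.5% for PDGFB tumors 1 to 4, and 19.9%, 21.2% and 32.7% in normal brain 1 to 3. Tead2 was the leading TEAD gene in NRAS tumors 1 and 4 and in no other library. Tead4 stayed at 7.43% or less of the sum in all 11 libraries.

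**Figure D3:**
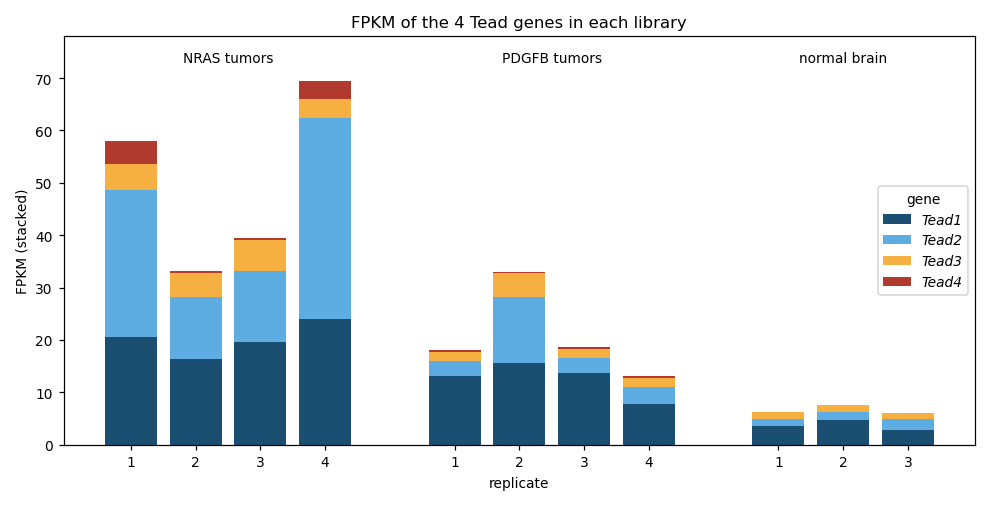
Stacked bars of Tead1, Tead2, Tead3 and Tead4 in FPKM for each library, NRAS tumors at the left and normal brain at the right. The bars reach 33.2 to 69.5 FPKM in NRAS tumors, 13.1 to 33.0 FPKM in PDGFB tumors and 6.13 to 7.66 FPKM in normal brain, and PDGFB tumor 2 is the tallest of its group.

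The restraining genes had smaller differences than the coactivators. Lats1 (chromosome 10, 7681200 to 7716461), a kinase that phosphorylates YAP and TAZ, read 16.0, 11.4, 13 and 15.4 FPKM in NRAS tumors 1 to 4, 15.5, 17.6, 14.4 and 8.69 FPKM in PDGFB tumors 1 to 4, and 8.83, 10.4 and 10.3 FPKM in normal brain 1 to 3. All NRAS tumors were above normal brain, and PDGFB tumor 4 was below all 3 normal brains. The differences were 0.46 ± 0.21 for NRAS tumors against normal brain, 0.44 ± 0.21 for PDGFB tumors against normal brain and 0.02 ± 0.20 between NRAS and PDGFB tumors (log2, SE).

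Lats2 (chromosome 14, 57689662 to 57746212), the second LATS kinase and itself a target of YAP, read 6.98, 7.42, 9.24 and 9.64 FPKM in NRAS tumors 1 to 4, 6.58, 9.51, 5.79 and 5.15 FPKM in PDGFB tumors 1 to 4, and 6.49, 7.40 and 5.53 FPKM in normal brain 1 to 3. Every pair of groups overlapped. The differences were 0.31 ± 0.20 for NRAS tumors against normal brain, 0.03 ± 0.20 for PDGFB tumors against normal brain and 0.28 ± 0.18 between NRAS and PDGFB tumors (log2, SE). The sign of the second changed in 5 of 18 other settings. Without PDGFB tumor 2, the highest of its group, it was -0.13.

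Amotl2 (chromosome 9, 102717091 to 102733418), an angiomotin-like scaffold that binds YAP, read 12.6, 5.95, 7.64 and 11.3 FPKM in NRAS tumors 1 to 4, 8.19, 13.4, 8.0 and 7.68 FPKM in PDGFB tumors 1 to 4, and 6.35, 5.84 and 6.19 FPKM in normal brain 1 to 3. NRAS tumor 2 lay within the normal range, and all PDGFB tumors lay above it. The differences were 0.49 ± 0.25 for NRAS tumors against normal brain, 0.50 ± 0.25 for PDGFB tumors against normal brain and -0.01 ± 0.23 between NRAS and PDGFB tumors (log2, SE). Without PDGFB tumor 2, which was the highest of its group, the difference between PDGFB tumors and normal brain was 0.33.

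Set against the LATS kinases, the coactivators stood apart in NRAS tumors. The sum of Yap1 and Wwtr1 divided by the sum of Lats1 and Lats2 was 3.06, 3.25, 3.88 and 3.06 for NRAS tumors 1 to 4, 0.617, 0.900, 0.680 and 0.786 for PDGFB tumors 1 to 4, and 0.771, 0.825 and 0.804 in normal brain 1 to 3. Coactivator mRNA was above LATS mRNA in all NRAS tumors and below it in every PDGFB tumor and normal brain. PDGFB tumors spanned the values of normal brain. The LATS sum itself was 22.9, 18.8, 22.3 and 25.1 FPKM in NRAS tumors 1 to 4, 22.1, 27.1, 20.1 and 13.8 FPKM in PDGFB tumors 1 to 4, and 15.3, 17.8 and 15.8 FPKM in normal brain 1 to 3. The ratio is one of mRNA and does not measure kinase activity.

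Ankrd1 (chromosome 19, 36111965 to 36119844), a nuclear ankyrin repeat protein known from heart and skeletal muscle, was close to absent outside NRAS tumors. It read 1.36, 0.110, 0.304 and 0.961 FPKM in NRAS tumors 1 to 4, 0, 0.0828, 0.0832 and 0.0805 FPKM in PDGFB tumors 1 to 4, and 0.0452, 0 and 0 FPKM in normal brain 1 to 3. Scaled by relative depth, these values are close to whole multiples of their smallest step, which is what counts of few reads give. The multiples were 38, 3, 8 and 25 for NRAS tumors 1 to 4, 0, 2, 2 and 2 for PDGFB tumors 1 to 4, and 1, 0 and 0 in normal brain 1 to 3. Every NRAS tumor was above every other library, but NRAS tumor 2 by 1 step only. NRAS tumors 1 and 4, the pair with high Tead4, had the highest values. Ankrd1 did not enter the fit, and no fold change is given against a group listed mostly at 0. Striated muscle markers, which would accompany muscle tissue, summed to 2.52 to 5.64 FPKM in NRAS tumors, 1.90 to 3.73 FPKM in PDGFB tumors and 6.64 to 8.21 FPKM in normal brain, and 3 of these 7 markers (Ckm, Myh4 and Tnnt3) were listed at 0 in some libraries.

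Within NRAS tumors the 10 genes ran by mean level from Wwtr1 (51.1 FPKM) over Tead2 (22.9), Yap1 (22.5), Tead1 (20.1), Lats1 (13.9), Amotl2 (9.38), Lats2 (8.32), Tead3 (4.79) and Tead4 (2.2) to Ankrd1 (0.684). Among neighbours in this order, Tead1 and Lats1, and Lats2 and Tead3, did not overlap over the 4 NRAS tumors, and all other neighbours did. In PDGFB tumors the order was Lats1 (14.1 FPKM), Tead1 (12.6), Wwtr1 (11.5), Amotl2 (9.32), Lats2 (6.76), Tead2 (5.42), Yap1 (4.20), Tead3 (2.31), Tead4 (0.352) and Ankrd1 (0.0616). There each neighbour overlapped the next down to Tead3, and Tead4 and Ankrd1 stood clear below. In normal brain the order was Lats1 (9.83 FPKM), Yap1 (7.95), Lats2 (6.47), Amotl2 (6.13), Wwtr1 (5.12), Tead1 (3.72), Tead2 (1.63), Tead3 (1.22), Tead4 (0.134) and Ankrd1 (0.0151). The first 4 overlapped from one to the next, as did Tead2 and Tead3, and the remaining neighbours did not. Yap1 was thus the second gene of the 10 in normal brain and the seventh in PDGFB tumors, and Wwtr1 the fifth in normal brain and the first in NRAS tumors.

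In the pairs that the titles call matches, NRAS tumor 2 over normal brain 1 had a ratio of 8.90 at Wwtr1, 2.37 at Yap1, 9.45 at Tead2, 4.56 at Tead1, 3.40 at Tead3 and at Tead4, 1.29 at Lats1, 1.14 at Lats2 and 0.937 at Amotl2. PDGFB tumor 1 over normal brain 3 had a ratio of 2.06 at Wwtr1, 0.478 at Yap1, 1.39 at Tead2, 4.61 at Tead1, 1.51 at Tead3, 2.92 at Tead4, 1.51 at Lats1, 1.19 at Lats2 and 1.32 at Amotl2. Both pairs had the direction of the group means at both coactivators, with Yap1 lower in the PDGFB tumor than in its match. Any pair of a tumor and a normal brain would show this, since neither tumor group overlapped normal brain at these genes.

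For NRAS tumors against normal brain, 8 of the 10 genes had groups that did not overlap with NRAS tumors higher, and 0 with NRAS tumors lower. Over the 14491 genes that entered the fit, 33.2% were higher and 31.9% lower in this way. For PDGFB tumors against normal brain, 6 of 10 were higher and 1 was lower, where 33.8% and 32.0% of all fitted genes were higher and lower. Between NRAS and PDGFB tumors, 5 of 10 were higher in NRAS tumors and 0 lower, where the shares of all fitted genes were 12.9% and 11.6%. The first 2 comparisons share the normal brains. Tead4 is counted as higher in each comparison and Ankrd1 in those with NRAS tumors. Neither is among the fitted genes that give the shares, so the 2 sets are not alike. These counts describe genes that were chosen for such differences.

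**Figure D4:**
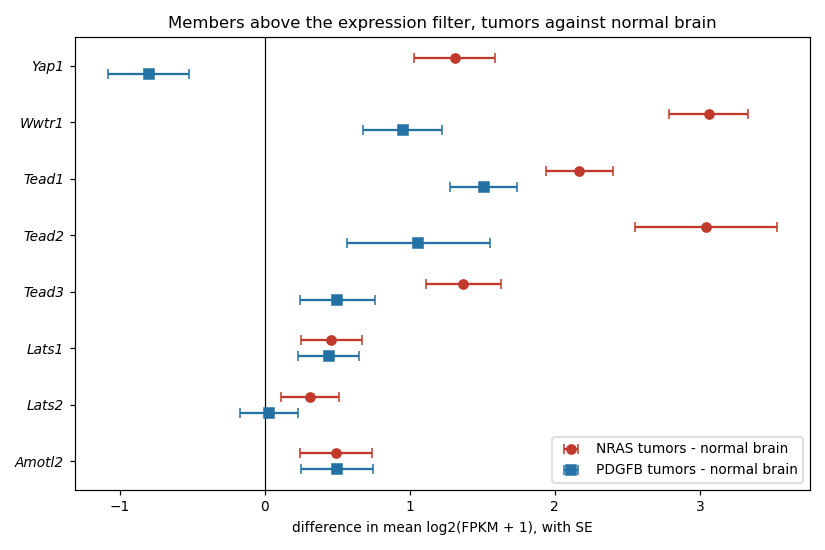
Difference in log2(FPKM + 1) with its SE for the 8 genes in the fit. NRAS tumors against normal brain and PDGFB tumors against normal brain share an axis. Wwtr1 lies at 3.06 for NRAS tumors and 0.95 for PDGFB tumors, and Yap1 at 1.31 and -0.80.

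Beyond the 10 genes, 28 other genes that act upstream of YAP and TAZ or beside TEAD were tested in 1 limma fit over all genes, with Benjamini-Hochberg adjustment over 14491 genes and a threshold of 0.05. Of the 28, 26 were tested: the TEAD cofactor Vgll1 was listed at 0 in all libraries and Vgll2 was below the filter. For NRAS tumors against normal brain, 13 rose, 2 fell and 11 did not pass, with a median difference of 0.57 (log2). Over all genes tested 32.0% rose and 30.3% fell (62.3% in either direction), with a median of 0.01. The kinases and their adaptors gave 5 rises and 1 fall among 11, the membrane and junction regulators 7 rises and 1 fall among 13, and the cofactors 1 rise among the 2 tested.

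The changes in NRAS tumors took in genes that promote and genes that restrain LATS. Mob1a, the coactivator of LATS, rose by 1.71 ± 0.37 (limma adjusted p = 0.00237), and Sav1, the adaptor of the MST kinases, rose by 1.22 ± 0.23 (adjusted p = 0.00127). Rassf1, a scaffold that binds MST kinases, read 33.5, 18.8, 21.5 and 49.1 FPKM in NRAS tumors 1 to 4 and 9.16, 8.33 and 6.84 FPKM in normal brain 1 to 3, a rise of 1.71 ± 0.29 (adjusted p = 0.000585). Limd1, a LIM protein that binds and restrains LATS, rose by 1.53 ± 0.27 (adjusted p = 0.000804). The atypical cadherins Dchs1 and Fat1 rose by 1.22 ± 0.21 (adjusted p = 0.000602) and 1.15 ± 0.34 (adjusted p = 0.0130). The genes that fell were Wwc1, the gene of KIBRA, by 0.74 (adjusted p = 0.00110) and Taok2, a kinase that acts on MST, by 0.56 (adjusted p = 0.00326).

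For PDGFB tumors against normal brain, 10 of 26 rose, 2 fell and 14 did not pass, with a median of 0.26, beside 29.3% of all genes that rose, 29.2% that fell (58.5% in either direction) and a median of 0.04. Limd1 rose by 2.14 ± 0.27 (limma adjusted p = 0.000109), with 17.9, 17.7, 23.8 and 18.6 FPKM in PDGFB tumors 1 to 4 against 3.45, 3.58 and 3.80 FPKM in normal brain 1 to 3. Wtip, of the same LIM family, rose by 1.5 ± 0.20 (adjusted p = 0.000139). Dchs1 rose by 1.62 ± 0.21 (adjusted p = 0.000114), Map4k4, a kinase that can phosphorylate LATS, by 1.44 ± 0.21 (adjusted p = 0.000262) and Sav1 by 1.01 ± 0.23 (adjusted p = 0.00353). Vgll4, which competes with YAP for TEAD, rose by 1.28 ± 0.20 (adjusted p = 0.000390). Amot, the angiomotin gene, fell by 0.93 (adjusted p = 0.000836) and Stk38l, an NDR kinase, fell by 0.73 (adjusted p = 0.00277). When the number series was a term in the fit, the counts were 6 rises and 2 falls. Over all 14491 genes the calls in either direction went from 8470 to 4768 with that term. Sav1 (adjusted p = 0.303), Mob1a, Rassf1 and Stk38 were the rises that did not pass there, and the other 7 genes named here did pass.

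Between NRAS and PDGFB tumors, 6 of 26 were higher in NRAS tumors, 3 were lower and 17 did not pass, with a median of -0.10, beside 14.3% of all genes higher, 12.2% lower (26.6% in either direction) and a median of -0.04. Frmd6, a FERM protein upstream of the kinases, was higher in NRAS tumors by 0.94 ± 0.17 (limma adjusted p = 0.00304) and Amot by 0.80 ± 0.16 (adjusted p = 0.00427). Amot read 4.42, 4.58, 6.88 and 5.16 FPKM in NRAS tumors 1 to 4 against 3.03, 2.53, 2.65 and 2.04 FPKM in PDGFB tumors 1 to 4. The other calls were Rassf1 (0.85 ± 0.27, adjusted p = 0.0359), the LIM gene Ajuba (0.73 ± 0.20, adjusted p = 0.0232), the MST2 gene Stk3 (0.56 ± 0.16, adjusted p = 0.0232) and Stk38l (0.56 ± 0.15, adjusted p = 0.0190). Wwc1 was lower in NRAS tumors by -0.54 (adjusted p = 0.0110), Vgll4 by -0.56 (adjusted p = 0.0445) and Nf2, the gene of merlin, by -0.49 (adjusted p = 0.0286). The count of 9 varied with single libraries: it was 3 without NRAS tumor 4, 3 without PDGFB tumor 3 and 5 without PDGFB tumor 1. Calls over all genes fell there too, from 3852 of 14491 to 2670 of 14285, 2580 of 14461 and 3046 of 14463. The upstream count was also 5 within the title numbers 2038 to 2046, where 3193 of 14491 genes were called. Vgll4 did not pass in 15 of 19 other settings, Rassf1 in 9, Nf2 in 6, Ajuba and Stk38l in 5 each and Stk3 in 3. Frmd6, Amot and Wwc1 passed in all 19.

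The published target list holds 19 genes known from human cancer as targets of YAP and TAZ, leaving out the targets that are among the 10. All 19 were tested. For NRAS tumors against normal brain 10 rose, 3 fell and 6 did not pass, with a median of 0.85 (log2). Of those that fell, Crim1 (limma adjusted p = 0.0460) did not pass in 15 of 19 other settings. For PDGFB tumors against normal brain 5 rose, 4 fell and 10 did not pass, with a median of 0.16. Between NRAS and PDGFB tumors 10 were higher in NRAS tumors, 2 were lower and 7 did not pass, with a median of 0.71. The background of all genes is that given above for each comparison. Within the title numbers 1834 to 1838 the NRAS tumors gave 10 rises and 1 fall against normal brain, and within 2038 to 2046 they gave 8 rises and 1 fall against PDGFB tumors. There the background is smaller: of 14491 genes, 6501 and 3193 were called in either direction, against 9023 and 3852 with all libraries.

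The targets fell into several patterns. Some rose in both tumor kinds. Igfbp3, an IGF-binding protein, read 562, 1043, 707 and 417 FPKM in NRAS tumors 1 to 4, 158, 372, 256 and 202 FPKM in PDGFB tumors 1 to 4, and 10.1, 9.20 and 6.93 FPKM in normal brain 1 to 3. Against normal brain it rose by 6.06 ± 0.33 for NRAS tumors (limma adjusted p = 6.68e-07) and by 4.61 ± 0.33 for PDGFB tumors (adjusted p = 3.64e-06). Ccn1 (row name Cyr61), a matricellular protein and one of the best known targets, read 25.8, 29.4, 31.9 and 30.1 FPKM in NRAS tumors 1 to 4, 24.9, 30.6, 22.8 and 23.2 FPKM in PDGFB tumors 1 to 4, and 2.32, 5.06 and 2.42 FPKM in normal brain 1 to 3. The tumor kinds overlapped at Ccn1. Its rise was 2.88 ± 0.20 for NRAS tumors (adjusted p = 3.82e-06) and 2.68 ± 0.20 for PDGFB tumors (adjusted p = 5.24e-06), and the difference between them was 0.20 ± 0.19 (adjusted p = 0.464). Gadd45a, a stress gene, read 27.6, 16.2, 18.8 and 21.1 FPKM in NRAS tumors 1 to 4, 5.55, 5.90, 5.04 and 7.14 FPKM in PDGFB tumors 1 to 4, and 3.49, 2.60 and 2.45 FPKM in normal brain 1 to 3. Its groups did not overlap. Gadd45a rose by 2.5 ± 0.19 in NRAS tumors (adjusted p = 5.78e-06) and by 0.85 ± 0.19 in PDGFB tumors against normal brain (adjusted p = 0.00291), and it was higher in NRAS than in PDGFB tumors by 1.65 ± 0.18 (adjusted p = 0.000282). When the number series was a term in the fit, its rise in PDGFB tumors did not pass (adjusted p = 0.0503).

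Other targets rose in NRAS tumors against both other groups and did not pass in PDGFB tumors against normal brain. Myof, the membrane repair protein myoferlin, read 27.9, 6.58, 13.5 and 47.8 FPKM in NRAS tumors 1 to 4, 1.91, 1.75, 1.55 and 1.31 FPKM in PDGFB tumors 1 to 4, and 1.54, 2.65 and 1.65 FPKM in normal brain 1 to 3. NRAS tumors 4 and 1 held the most, as for Tead2, Tead4 and Ankrd1. Myof rose by 2.77 ± 0.49 against normal brain (limma adjusted p = 0.000805) and by 2.92 ± 0.46 against PDGFB tumors (adjusted p = 0.00153). Axl, a receptor tyrosine kinase also found on macrophages, read 72.5, 36.5, 81.2 and 106 FPKM in NRAS tumors 1 to 4, 17.4, 36.6, 14.9 and 18.0 FPKM in PDGFB tumors 1 to 4, and 13.9, 13.4 and 13.3 FPKM in normal brain 1 to 3. It rose by 2.27 ± 0.35 against normal brain (adjusted p = 0.000366) and by 1.71 ± 0.32 against PDGFB tumors (adjusted p = 0.00373), of which PDGFB tumor 2 reached the lowest NRAS tumor. Nuak2, an AMPK-related kinase, rose by 1.92 ± 0.36 (adjusted p = 0.00103) and 1.76 ± 0.33 (adjusted p = 0.00364), and the matrix protein gene Ccdc80 rose by 1.58 ± 0.32 (adjusted p = 0.00508) against PDGFB tumors, where it did not pass within the title numbers 2038 to 2046 (adjusted p = 0.0725).

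A pair of targets was lower in NRAS than in PDGFB tumors. Nt5e, the gene of the adenosine-making enzyme CD73, read 23.7, 12.6, 13 and 8.58 FPKM in NRAS tumors 1 to 4, 44.3, 54.4, 49.1 and 37.7 FPKM in PDGFB tumors 1 to 4, and 2.74, 3.47 and 3.15 FPKM in normal brain 1 to 3. It rose by 3.51 ± 0.26 in PDGFB tumors against normal brain (limma adjusted p = 4.68e-06) and was lower in NRAS than in PDGFB tumors (-1.69 ± 0.24, adjusted p = 0.00112). Ccn2 (row name Ctgf), the matricellular relative of Ccn1, read 10.4, 7.79, 13.1 and 7.0 FPKM in NRAS tumors 1 to 4, 11.9, 20.6, 18.3 and 19.5 FPKM in PDGFB tumors 1 to 4, and 11.4, 10.8 and 12.4 FPKM in normal brain 1 to 3. It is named outside the rule, as the only other target lower in NRAS than in PDGFB tumors (-0.82 ± 0.21, adjusted p = 0.0143), and it did not pass within the title numbers 2038 to 2046.

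Some targets were lower in tumors than in normal brain. Crim1, a membrane protein that binds BMPs, fell by 2.03 in PDGFB tumors (SE 0.30, limma adjusted p = 0.000282), and Dock5, a Rac exchange factor, fell by 1.02 (SE 0.18, adjusted p = 0.000656). Both were higher in NRAS than in PDGFB tumors, Crim1 by 1.27 ± 0.28 (adjusted p = 0.00791) and Dock5 by 0.94 ± 0.16 (adjusted p = 0.00261). Arhgef17 fell by 0.60 in NRAS tumors (SE 0.18, adjusted p = 0.0128) and by 1.32 in PDGFB tumors (SE 0.18, adjusted p = 0.000168). Its fall in NRAS tumors did not pass in 2 of 19 other settings, of which 1 left out normal brain 3 and 1 took the title numbers 1834 to 1838 alone. Rbms3, an RNA-binding protein named after its values were seen, fell by 0.91 in NRAS tumors (SE 0.16, adjusted p = 0.000867) and by 0.98 in PDGFB tumors (SE 0.16, adjusted p = 0.000565).

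**Figure D5:**
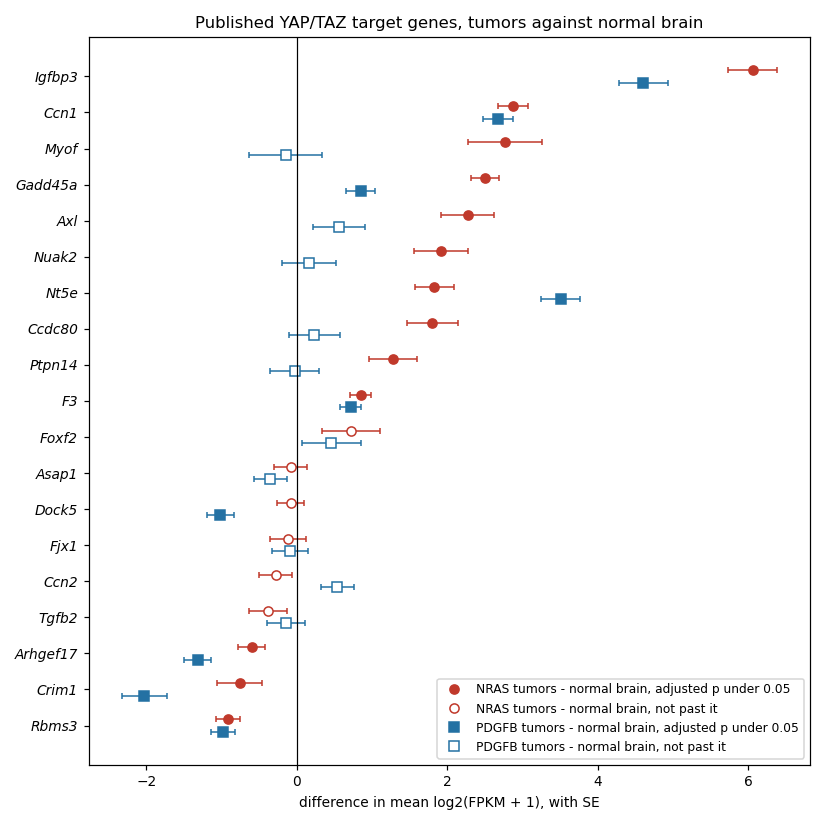
Difference in log2(FPKM + 1) with its SE for the 19 published YAP/TAZ targets, for NRAS tumors and for PDGFB tumors against normal brain. Filled points passed the adjusted threshold of 0.05 and open points did not. Igfbp3 and Ccn1 lie to the right in both tumor kinds, and Myof, Axl and Nuak2 are filled against normal brain for NRAS tumors and open for PDGFB tumors.

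Markers of cell types moved with the groups as well. Bulk libraries do not show whether host cells or tumor cells gave these levels. The part of these markers in the results was not tested. The summed level of 10 neuron markers was 284 to 1291 FPKM in NRAS tumors, 129 to 715 FPKM in PDGFB tumors and 2706 to 3125 FPKM in normal brain, and 9 and 10 of the 10 fell in NRAS and in PDGFB tumors. The 7 leukocyte markers summed to 146 to 379 FPKM in NRAS tumors, 31.4 to 85.8 FPKM in PDGFB tumors and 57.8 to 71.4 FPKM in normal brain, and 5 of the 6 tested rose in NRAS tumors. Leukocyte sums were highest in NRAS tumor 4, which also had the highest Yap1, Tead2, Axl and Myof. The same tumor had the lowest Wwtr1 and Tead3 of the NRAS tumors. NRAS tumor 3, next in leukocyte sum with 299 FPKM, read 81.2 FPKM at Axl. It read 17.3 FPKM at Yap1 and 13.5 FPKM at Tead2 and at Myof, below NRAS tumor 1 at these 3 genes. Astrocyte markers summed to 889.9 to 1545 FPKM in NRAS tumors, 345 to 925 FPKM in PDGFB tumors and 914 to 946 FPKM in normal brain. Of these 8 markers, 1 rose and 3 fell in NRAS tumors, and 1 rose and 4 fell in PDGFB tumors. Gfap alone read 457 to 1015 FPKM in NRAS tumors and 103 to 135 FPKM in normal brain, so it weighs heavily in the sum. Endothelial markers summed to 75.6 to 104 FPKM in NRAS tumors, 69.6 to 93.1 FPKM in PDGFB tumors and 52.5 to 58.6 FPKM in normal brain. Pericyte and smooth muscle markers summed to 51.5 to 66.5 FPKM in NRAS tumors, 32.2 to 71.2 FPKM in PDGFB tumors and 73.9 to 89.1 FPKM in normal brain. Fibroblast and meninges markers summed to 26.2 to 88.1 FPKM in NRAS tumors, 26.8 to 107 FPKM in PDGFB tumors and 24.2 to 62.9 FPKM in normal brain. The 6 markers of oligodendrocyte progenitors summed to 153 to 741 FPKM in NRAS tumors, 1268 to 1561 FPKM in PDGFB tumors and 111 to 191 FPKM in normal brain. Those of mature oligodendrocytes summed to 309.7 to 1528 FPKM in NRAS tumors, 238 to 2184 FPKM in PDGFB tumors and 2336 to 7118 FPKM in normal brain. Ependyma and choroid plexus markers summed to 7.17 to 45.5 FPKM in NRAS tumors, 3.41 to 815 FPKM in PDGFB tumors and 836 to 2039.6 FPKM in normal brain. PDGFB tumor 2 was the highest of its group at Yap1, Wwtr1, Tead1, Tead2, Tead3, Lats1, Lats2 and Amotl2, and the lowest at Tead4. It had the lowest neuron sum (129 FPKM) and astrocyte sum (345 FPKM) of all 11 libraries.

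The genes whose pattern over the 11 libraries was most like that of Yap1, among 10272 searched, were Plekha3, Ezr, Lamb2 and Rbms1. Their root mean square difference from Yap1, in z-scored log2(FPKM + 1), was 0.21, 0.21, 0.26 and 0.26. Ezr, the gene of ezrin, read 36.8, 32.0, 37.6 and 48.6 FPKM in NRAS tumors 1 to 4, 15.1, 15.4, 14.5 and 16.2 FPKM in PDGFB tumors 1 to 4, and 17.9, 24.4 and 23.6 FPKM in normal brain 1 to 3, with PDGFB tumors lowest as for Yap1. The genes most like Wwtr1 were Dab2 (0.18), Upp1 (0.19), Osmr (0.20) and Apobec1 (0.21). Upp1, the gene of uridine phosphorylase, read 108, 67.8, 151 and 82.4 FPKM in NRAS tumors 1 to 4, 4.57, 7.21, 6.05 and 5.32 FPKM in PDGFB tumors 1 to 4, and 1.46, 1.17 and 1.77 FPKM in normal brain 1 to 3. Both lists are a description of likeness, without a test.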

How the data were processed

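RNA of 11 libraries was sequenced, and the authors deposited 1 table of FPKM with a column per library. Per the submitters' processing notes, the tools were TopHat2 2.0.13 and Cufflinks 2.2.1 with build mm10. The sources used here do not give settings or annotation. Of 24347 rows, 27 with gene names turned into dates were left out. Positions come from a GRCm38.p6 gene annotation and upstream sequences from RefSeq (GRCm38.p6).

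FPKM divides by the library total, so abundant transcripts can lower others, and low values rest on few reads. FPKM holds no counts, so no count test was run. Relative depth was read from the steps between low values.

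Genes with at least 1 FPKM in at least 3 libraries (14491) were fitted together on log2(FPKM + 1), each group with its own mean, by limma 3.58.1 under R 4.3.3 (eBayes with trend), a scale that understates changes of low genes. Tests were two-sided, adjusted by Benjamini-Hochberg over all genes, threshold 0.05. The fit was tested on simulated data. Errors are SD or, for differences, SE.

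The 10 genes and all lists were chosen with earlier results of these data known. Named are the 10, up to 6 called genes per list and comparison with the largest difference, the 4 genes most like Yap1 and Wwtr1 (mean of at least 5 FPKM), and Nras and Pdgfb; genes that fell among the upstream regulators, those lower in NRAS than PDGFB tumors, Ccn2 and Rbms3 were added after their values were seen. Alternatives were a pseudocount of 0.1, no filter, 2 scalings, a replicate block, the title number series as a term or taken alone, only the groups compared, and each library left out.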

Additional observations from a re-analysis of the deposited data

Results flagged for a closer look

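In a group of 4, a sample was picked out where its gap to the nearest other sample, as a share of the group's range, exceeded Dixon's critical value at the 95% level. Chance picks about 1 group in 20 (5%); here it was 12 of 70 groups over 35 genes, and 6 of the 20 groups of the 10 genes. PDGFB tumor 2 was the sample apart in 7 of the 12. Among PDGFB tumors it was high at Tead2 with 12.6 FPKM (gap 0.946 of the range), Tead3 with 4.40 FPKM (0.943), Amotl2 with 13.4 FPKM (0.911), Yap1 with 5.90 FPKM (0.882) and Axl with 36.6 FPKM (0.860). It was low at Arhgef17 with 5.75 FPKM (0.930) and Ccdc80 with 1.46 FPKM (0.895). Its summed neuron, astrocyte and leukocyte markers (129, 345 and 31.4 FPKM) were the lowest of its group.

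In NRAS tumors, Yap1 stood apart in NRAS tumor 4 with 38.4 FPKM (0.889). In PDGFB tumors, Stk3 was high in PDGFB tumor 1 with 11.6 FPKM (0.940), in a group that spanned 11.1 to 11.6 FPKM. Limd1 was high in PDGFB tumor 3 with 23.8 FPKM (0.859), and Frmd6 was low in PDGFB tumor 4 with 4.68 FPKM (0.859). Ankrd1 was lowest in PDGFB tumor 1, listed at 0 (0.968), where the other 3 lay at 2 steps each.

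Yap1 was also picked out for opposite directions: all NRAS tumors were above and all PDGFB tumors below normal brain, with a difference of 2.11 between NRAS and PDGFB tumors. That difference was not tested, because Yap1 was chosen with its values known.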

How the results depend on the processing

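Some alternatives could not move a difference: no filter, only the groups compared, and a library left out of the group not compared. Taking a title number series alone gave the same value as the series as a term. Leaving 1 library out of a compared group cannot move a difference beyond the spread between replicates, given groups of 3 and 4. Without PDGFB tumor 2, Tead2 and Tead3 in PDGFB tumors against normal brain still went from 1.06 to 0.62 and from 0.50 to 0.23. Of 448 differences of the 8 fitted genes, these settings included, 445 moved by no more than that spread. The others were Tead3 in NRAS tumors against normal brain with a pseudocount of 0.1 (1.87, from 1.37), and Yap1 and Lats2 with the title number series as a term. In PDGFB tumors against normal brain, Yap1 went to -1.36 (from -0.80) and Lats2 to -0.32 (from 0.03). The series term is set by the NRAS tumors alone, the only group in both series. These shifts therefore follow the difference between NRAS tumors 1 and 2 and NRAS tumors 3 and 4. Why those tumors differ, and the cause of the Tead3 shift, were not tested. Differences near 0 changed sign for Lats2 in PDGFB tumors against normal brain (5 of 18 settings), and between NRAS and PDGFB tumors for Lats1 (3 of 19) and Amotl2 (6 of 19). Of 112 list counts, 107 stayed within 1.5 times. The 5 that did not all concern upstream genes between NRAS and PDGFB tumors, 9 in the fit of all libraries: 5 within title numbers 2038 to 2046, 4 with only the groups compared, where fewer libraries set the spread, 3 without NRAS tumor 4, 3 without PDGFB tumor 3 and 5 without PDGFB tumor 1. In these 5 settings fewer of all genes were called as well, 2580 to 3193 against 3852. Over all left-out libraries the upstream count ranged from 3 to 11. With a library left out, upstream genes called ranged from 14 to 17 in NRAS and 10 to 14 in PDGFB tumors against normal brain, and targets from 11 to 13 and 9 to 11, and stayed at 12 between the tumor kinds. With the replicate block, upstream calls were 16, 11 and 7 and target calls 12, 9 and 12 for NRAS tumors against normal brain, PDGFB tumors against normal brain and NRAS against PDGFB tumors. Libraries with the same number correlated at -0.50 to 0.16 in their deviations, and those with different numbers at -0.37 to 0.48. The matches given in the titles join different numbers: NRAS tumor 2 with normal brain 1, and PDGFB tumor 1 with normal brain 3. The numbers and the replicate block therefore do not follow those matches, which correlated at -0.08 and 0.13. These values cannot settle whether the numbers mark other pairs, since other differences between tumors also move them. Quantile normalization moved the median of all genes to -0.07 in NRAS tumors against normal brain and -0.11 between NRAS and PDGFB tumors. Depth limits Ankrd1, with 0 to 38 steps a library, and Tead4.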
